A study of Mus musculus with 18 samples.

Results

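A promoter is the DNA before and around the start of a gene, and the differential m6A peaks examined here are those that the authors' annotation placed in one. Of the 41084 differential peaks in the 4 deposited tables, 3092 had an annotation that begins with Promoter, in any of its distance bins. The rule did not use the score or the direction of a peak. The table of peaks lower in LPS than in Veh is complete for chromosomes 1 to 9 only, so it was used there, and 3084 of 40929 peaks remained. They fall into 929 LPS-up and 478 LPS-down peaks, listed as higher or lower in LPS than in Veh, and 893 Mel-up and 784 Mel-down peaks, listed as higher or lower in Mel+LPS than in LPS. Values given for all 4 tables keep this order.

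The samples were uteri of wild-type ICR mice on day 5 of pregnancy, and the mice were 8 weeks old when bought. The Veh group received saline on days 1 to 4. The LPS group received saline on days 1 to 4 and, on days 3 and 4, 30 min after the saline, lipopolysaccharide (LPS, a bacterial cell wall component that triggers inflammation) at 0.5 mg/kg. The Mel+LPS group received melatonin at 10 mg/kg on days 1 to 4 and the same LPS. Each group had 3 replicates, each sequenced as input RNA and as RNA bound by an m6A antibody, which makes 18 libraries. The whole uterus was used, so a change in RNA per cell and a change in the number of cells of a type cannot be told apart. Each peak has 1 score per comparison, the MACS2 log10 likelihood ratio of a difference against none, and no value per replicate. No replicate error or p-value could be given, the depth behind a peak is unknown, and the 95% Wilson intervals below cover the counting of peaks only. Neighboring peaks often share a transcript, so these intervals are too narrow for peaks that depend on each other. The score is not a methylation level. No input level per gene is given, so a change in the amount of an RNA and a change in its m6A cannot be told apart.

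N6-methyladenosine (m6A) is a mark on RNA. Writers, the METTL3-METTL14 complex with its partners, place it on adenosines in a short consensus, erasers remove it, and readers bind it and change the splicing, translation or decay of the RNA. In mRNAs the mark is known to be dense near stop codons and in 3′UTRs. Since the antibody pulls down RNA and not DNA, a peak before an annotated start lies on whatever RNA was made there, which can belong to a neighboring gene, to a longer form of the same gene or to RNA that the annotation does not hold.

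The distance column showed what the class contains. The promoter peaks had distances from -2999 bases, before the start of the assigned transcript, to 0, at the start itself, and 0 of the 3092 had a distance above 0. Of all other peaks, 0 had a distance from -3000 to 0, while 6700 lay 1 to 3000 bases after a start and had other classes. The class therefore held the upstream side only, and every peak in that window carried it whatever else lay there. A peak with distance 0 overlapped the start, which was the case for 342 of the 3092 peaks, and none lay wholly inside the assigned transcript. At the outer edge, 67 promoter peaks lay in the last 100 bases inside the window, and 85 peaks of other classes in the first 100 bases outside it. All coordinates are those of GRCm38 (mm10).

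Among the highest scores, the RNA under the peak was often that of a neighbor. The windows below were taken from the GENCODE transcript of the gene whose exon holds the peak, on its strand, 5′ to 3′. They are shown because these peaks carry the results that follow. Capitals mark a match to the m6A consensus DRACH (A, G or T, then A or G, then A, then C, then A, C or T), the match nearest the center of the peak with GGAC preferred.
Saa3 3′UTR, chr7:46712020-46712048, minus strand, assigned to Saal1: atctggatccctAAACAtcccaatgtgct
Saa3 coding sequence, chr7:46712629-46712657, minus strand, assigned to Saal1: ccatgctcggggGAACTatgatgctgccc
Plekhs1 coding sequence, chr19:56471794-56471822, plus strand, assigned to Plekhs1: aactgcaaacagAGACTatttccttattg
Lcn2 3′UTR, chr2:32384668-32384696, minus strand, assigned to 1110008P14Rik: atccacctgtctTAACAccaccaatggcg
Il11 3′UTR, chr7:4772542-4772570, minus strand, assigned to Fam71e2: atacatgagtatGGACTgtttggtttttc
Bmp2 coding sequence, chr2:133561421-133561449, plus strand, assigned to Mir3090: ccctttgtatgtGGACTtcagtgatgtgg
Abcc9 coding sequence, chr6:142614351-142614379, minus strand, assigned to 5330439B14Rik: tggaaaccaaacAGACAggaggcttcgcg
Agtrap 3′UTR, chr4:148077427-148077455, minus strand, assigned to Gm13201: ccgggacagccaGGACTatacagggaaac
Slc13a5 3′UTR, chr11:72243250-72243278, minus strand, assigned to Gm34252: ccatctttactaGGACCcttccatctctc

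Only a few peaks lay in sequence that is promoter by position, with no annotated exon under them, and could also be read. The sequences of 3 of these, chosen after their values were seen, are given whole from the RefSeq promoter windows (GRCm38.p6), on the strand of the assigned gene, with DRACH matches in capitals.
Tsr1, chr11:74897931-74898032, plus strand: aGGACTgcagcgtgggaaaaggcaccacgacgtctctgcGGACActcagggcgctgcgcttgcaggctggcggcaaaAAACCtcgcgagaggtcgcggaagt
H3f4, chr11:58961466-58961610, plus strand: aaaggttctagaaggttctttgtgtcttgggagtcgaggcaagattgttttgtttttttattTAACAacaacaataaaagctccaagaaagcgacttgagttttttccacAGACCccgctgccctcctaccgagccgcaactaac
Slc25a15, chr8:22398289-22398404, minus strand: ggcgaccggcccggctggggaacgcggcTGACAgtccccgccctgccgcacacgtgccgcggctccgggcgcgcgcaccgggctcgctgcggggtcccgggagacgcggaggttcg
The Tsr1 peak (a ribosome assembly factor) was Mel-up with a score of 8.90, 48 bases before the start. The H3f4 peak (a histone H3 gene) was LPS-up with 7.06, 101 bases before the start, and the Slc25a15 peak (the mitochondrial ornithine carrier) was LPS-up with 6.14, 12 bases before it. Their GC contents were 63.7%, 42.8% and 81.0%. Of 32851 RefSeq promoter windows of 300 bases, 98.4% hold DRACH on the gene's strand, so a match there is common.

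The promoter class made up a similar share of each table. It held 7.73% of the 12023 LPS-up peaks (95% interval 7.26% to 8.22%) and 7.64% of the 6259 LPS-down peaks (7.01% to 8.32%). It held 6.65% of the 13436 Mel-up peaks (6.24% to 7.08%) and 8.51% of the 9211 Mel-down peaks (7.96% to 9.10%), and these last intervals did not overlap. Few promoter peaks lay over the start, 11.3%, 11.9%, 11.9% and 9.44% in the 4 tables. The other peaks, 88.1% to 90.6% of each table, lay upstream. The bin up to 1 kb held 48.9% to 52.1% of the promoter peaks of a table, that from 1 to 2 kb 25.6% to 27.0% and that from 2 to 3 kb 22.3% to 24.5%. Promoter peaks were as wide as others, with medians of 166 to 176 bases against 170 to 177 over all classes.

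**Figure D1:**
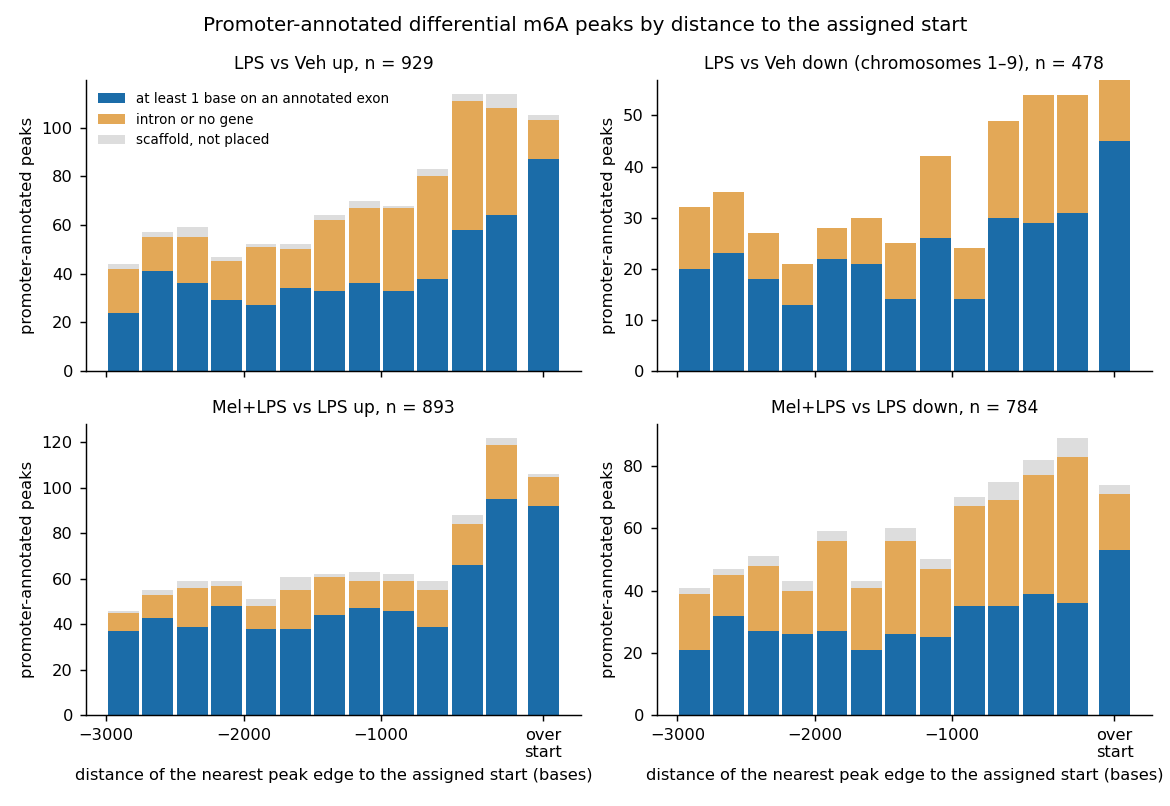
Number of promoter-annotated peaks (y axis) in bins of 250 bases of the distance between the peak and the assigned start (x axis, bases), with peaks over the start in the last bar, for the 4 tables. Blue bars are peaks with at least 1 base on an annotated exon, orange bars peaks in introns or outside genes, and gray bars peaks on scaffolds, which were not placed. In each table, counts rise toward the start, and 87 of the 103 placed LPS-up peaks over the start touch a GENCODE exon.

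To find which RNA lay under each peak, the 2969 promoter peaks on assembled chromosomes were placed on all GENCODE exons. An exon lay under 64.7% of them (63.0% to 66.4%). Each was given to the gene with the most exon bases under it, which for 50.3% (48.5% to 52.1%) was not the assigned gene. Of these 1492 peaks, 60 also touched an exon of the assigned gene, and the other 1432 (48.2%) did not. For 587 of the 2969 peaks, GENCODE had no gene of the assigned symbol, so these could not count for it. Of the remaining 2382, 44.5% (42.5% to 46.5%) lay on exons of other genes and on none of the assigned gene, and 20.5% touched an exon of the assigned gene. Over all classes, counted the same way, these shares were 28.4% and 43.5% of 33221 peaks. By table, the share on any exon was 60.3%, 64.0%, 78.5% and 54.5%, so it was highest for Mel-up and lowest for Mel-down peaks. Over all classes, it was 63.9%, 68.7%, 83.4% and 55.6%. By most bases, exons of the assigned gene held 15.1%, 11.3%, 20.9% and 8.25% of promoter peaks, against 31.9%, 36.4%, 45.9% and 26.2% over all classes. Exons of another gene held 45.2%, 52.7%, 57.6% and 46.3%, against 32.0%, 32.3%, 37.5% and 29.5%. The distal intergenic class, whose definition leaves out annotated genes, had an exon under 10.3%, 12.5%, 20.2% and 9.64% of its peaks.

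**Figure D2:**
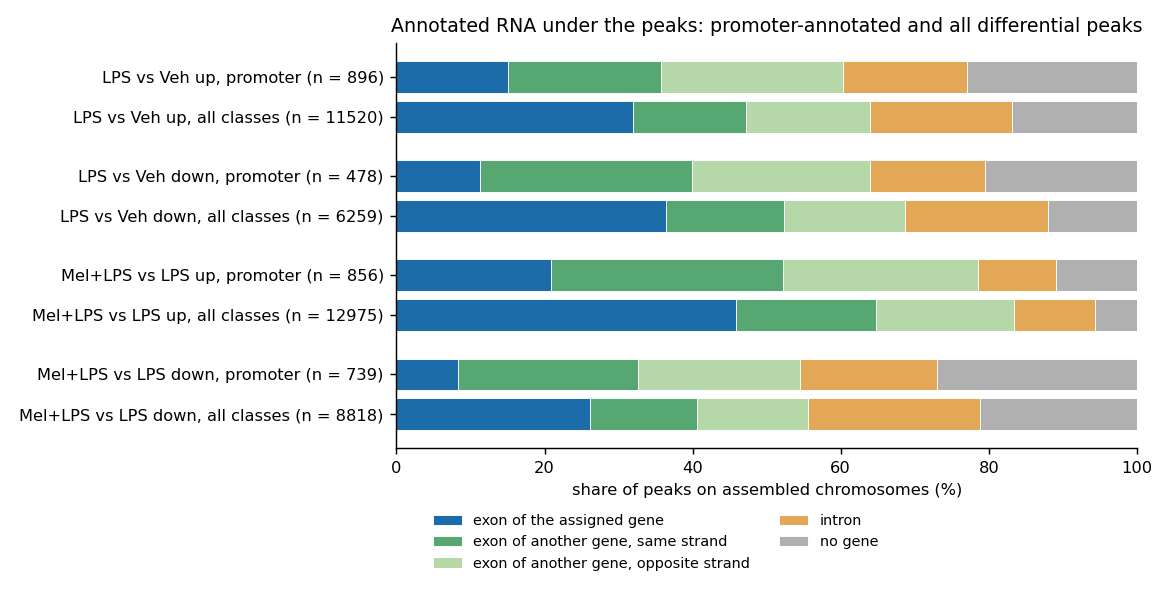
Share of peaks (x axis, % of peaks on assembled chromosomes) on an exon of the assigned gene, on an exon of another gene on the same or the opposite strand, in an intron or outside genes, for promoter-annotated peaks and for all classes in the 4 tables. A peak on several exons is given to the gene with the most bases under it. Counted so, the assigned gene's exons hold 8.25% to 20.9% of promoter peaks and 26.2% to 45.9% of all peaks.

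A peak over the assigned start covers the first base of that transcript by definition, so its count on the assigned gene's exons depends on which starts GENCODE holds, and it is not compared here. An upstream peak can touch the assigned gene only through another of its transcripts or a start that GENCODE sets further upstream. This was so for 252 of the 2633 upstream peaks (9.57%), or 12.1% of the 2089 whose assigned symbol is in GENCODE (10.7% to 13.5%). By table, the second share was 12.99% of 608, 8.62% of 348, 18.5% of 611 and 5.75% of 522. Where another gene had the most bases under the peak, its coding sequence or 3′UTR was under most peaks, and its 5′UTR under 0.585% to 1.48%. The coding sequence held 39.0% and the 3′UTR 34.8% of the 405 such LPS-up peaks, and 29.8% and 42.5% of the 252 LPS-down peaks. The coding sequence held 46.0% of the 493 Mel-up peaks (41.7% to 50.5%) and 23.4% of the 342 Mel-down peaks (19.2% to 28.2%), and the 3′UTR 33.1% and 47.7%. The rest lay on noncoding exons. The peaks have no strand in the files, so reads of a gene and of an opposite neighbor could not be told apart, and the strand of an exon is that of the annotation.

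The kind of gene named beside a peak went with its placement. Of the 129 promoter peaks assigned to a microRNA gene, 14 (10.9%) overlapped its start and touched its own exon. Another gene had the most bases under 105 (81.4%, 73.8% to 87.2%), 88 of them on the same strand, and 94 (72.9%) lay on exons of other genes alone. Of the 66 assigned to a snoRNA gene (small RNAs that guide rRNA modification and are mostly encoded in introns of other genes), another gene had the most bases under 52 (78.8%), and 43 (65.15%) lay on exons of other genes alone. Of the 671 assigned to a lncRNA, 55.1% had the most bases on a gene of the opposite strand (51.4% to 58.9%). GENCODE held the symbol of the lncRNA for only 250 of the 671, and of these, 13.2% touched an exon of the lncRNA and 52.8% lay on exons of other genes alone. Of the 1763 assigned to a protein-coding gene, 23.6% touched its own exon, 39.8% lay on exons of other genes alone and 22.8% lay in no gene. Protein-coding genes made up 57.1% to 60.9% of the promoter peaks whose gene is in RefSeq, and 60.1% to 69.7% of those of all classes. MicroRNA genes made up 3.09% to 5.25% against 2.10% to 2.55%.

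The question of direction is whether promoter peaks were up or down as often as others. In LPS vs Veh, on chromosomes 1 to 9, 477 promoter peaks were up and 478 down, an up share of 49.9% (46.8% to 53.1%), beside 49.8% of the 12479 peaks of all classes. In Mel+LPS vs LPS, 893 were up and 784 down, a share of 53.2% (50.9% to 55.6%), beside 59.3% of the 22647 peaks of all classes. At scores of 3 or more, the second share fell below 50%, to 44.4% for promoter peaks and 48.4% for all classes. At scores of 6 or more, it was 45.3% of 203 promoter peaks (38.6% to 52.2%) and 54.7% of 2884 peaks of all classes. At scores of 10 or more, 17 of 34 promoter peaks were up, beside 64.1% of 594.

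The direction was also counted by placement. In Mel+LPS vs LPS, 62.5% of the 1075 promoter peaks on an exon were up (59.6% to 65.4%), and 35.4% of the 520 off exons (31.4% to 39.6%). Peaks on the assigned gene's exon were up in 74.6% of 240 (68.7% to 79.7%), those on another gene's exon in 59.8% (same strand) and 58.1% (opposite strand), those in introns in 39.9% and those in no gene in 31.8% of 292 (26.8% to 37.4%). Over all classes, 68.8% of peaks on an exon and 35.6% off exons were up. There, the assigned gene's exons held 5952 Mel-up and 2306 Mel-down peaks, introns 1429 and 2050, and no gene 730 and 1863. Exons of another gene held 2446 and 1276 on the same strand, and 2418 and 1323 on the opposite strand. The split by placement was thus not particular to promoter peaks. By class, 75.9% of 5′UTR, 74.2% of exon, 55.5% of 3′UTR, 43.1% of intron and 27.4% of distal intergenic peaks were up. For LPS vs Veh, the split was smaller and turned the other way. Of 584 promoter peaks on an exon, 47.6% were up (43.6% to 51.7%), and of 371 off exons 53.6% (48.6% to 58.6%), and the intervals overlapped. Over all classes, these shares were nearly the same, 48.0% and 53.5%. The lowest share of LPS vs Veh promoter peaks was that on another gene's exon on the same strand, with 40.7% of 231 up (34.6% to 47.1%). That share was not counted over all classes.

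**Figure D3:**
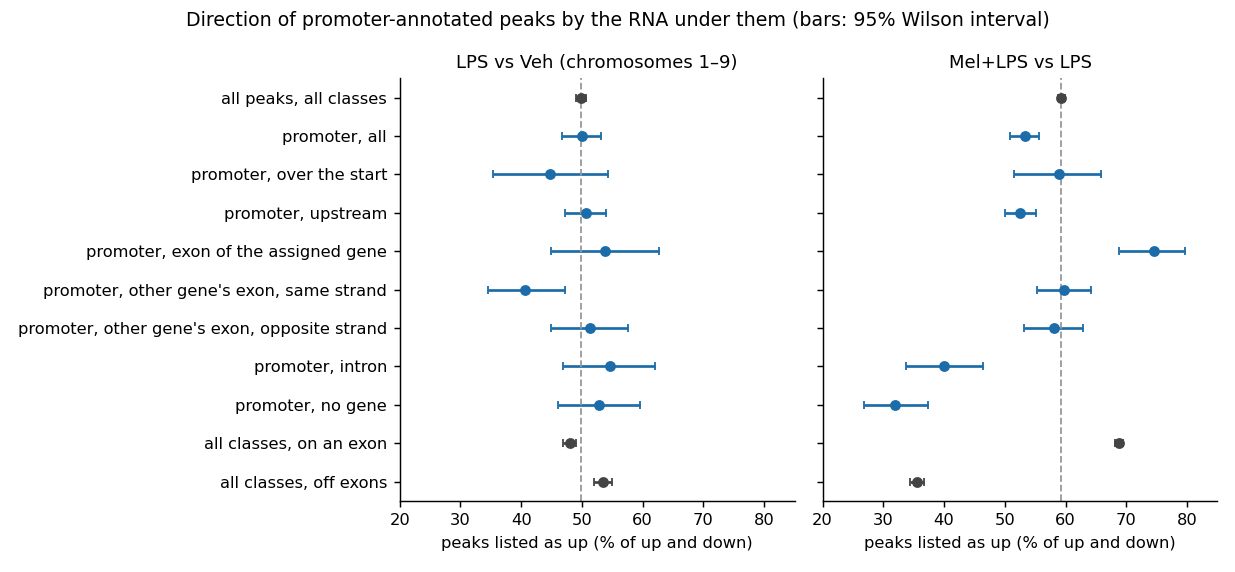
Share of peaks listed as up (x axis, % of up and down peaks, with 95% Wilson intervals) in LPS vs Veh on chromosomes 1 to 9 and in Mel+LPS vs LPS, for all classes (gray) and promoter-annotated peaks by position and placement (blue). The dashed line is the share of all classes. In Mel+LPS vs LPS, promoter peaks on the assigned gene's exon reach 74.6% and those in no gene 31.8%, beside 68.8% on exons and 35.6% off exons over all classes.

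Scores of promoter peaks lay close to those of all classes. The medians were 2.93, 2.90, 2.27 and 2.82 in the 4 tables, against 2.88, 2.65, 2.17 and 3.09 over all classes. A score of 10 or more was reached by 38 LPS-up promoter peaks (4.09%, beside 3.59% over all classes) and by 26 LPS-down ones (5.44%, beside 4.19%). It was reached by 17 Mel-up peaks (1.90%, beside 2.84%) and 17 Mel-down peaks (2.17%, beside 2.31%). Many peaks had the very same score. Among LPS-up peaks, 3.78 was the score of 1390 of 11520 peaks (12.1%), of 21.6% of the 356 promoter peaks off exons and of 5.56% of the 540 on exons. The values were alike for the most shared score of LPS-down peaks (3.63, 19.8% off and 5.56% on exons) and Mel-down peaks (3.85, 21.4% and 5.71%), and lower for Mel-up peaks (5.42, 11.96% and 1.93%). With the peaks at these scores left out, the up share of promoter peaks was 49.2% in LPS vs Veh and 55.6% in Mel+LPS vs LPS.

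The highest LPS-up promoter peak was assigned to Saal1 and lay on Saa3, an acute-phase serum amyloid gene whose end precedes the start of Saal1. The peak at chr7:46711889-46712195, 1199 bases before the Saal1 start, had a score of 94.65, and 64.5% of it lay on the last exon of Saa3. A second peak at chr7:46712423-46712669 on the exon before it scored 50.3. The start of Saa3 itself lay under another promoter peak (chr7:46715465-46715683, 16.15), and a Saa3 peak of another class scored 57.7. Among Mel-down peaks, the locus had 1 promoter peak (chr7:46711889-46712063) with a score of 1.93. Both of the highest peaks named Saal1, a neighbor on the same strand, so Saa3 is found under its own name in 1 of the 3 LPS-up promoter peaks.

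The next highest, Plekhs1 (a gene for a pleckstrin homology domain protein), had 3 LPS-up promoter peaks. They scored 69.2 at 582 bases before an assigned start (chr19:56471014-56471208), 23.0 over that start and 19.8 over another start of the gene (chr19:56461617-56461870). The first 2 sites were also Mel-down with 7.93 and 2.46. BC023719 followed with 45.6, 182 bases upstream and on the H2-T-ps pseudogene of the major histocompatibility complex, where reads of near-identical genes can be misassigned. The Dysf peak (dysferlin, a membrane repair protein) lay in an intron, 1878 bases before the assigned start, with 26.7. For peaks over a start, which cover the first base of the assigned transcript too, the gene given after the word on is the one with the most exon bases in GENCODE. The next of these were Gm46371 (12.3), Vsig10 (10.7), I920046F24Rik on the 5′UTR of Kif3c (9.44) and Msx1os on the 3′UTR of Msx1 (8.28), the homeobox factor needed for uterine receptivity.

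LPS-down promoter peaks (chromosomes 1 to 9) were led by a peak assigned to 1110008P14Rik on the 3′UTR of Lcn2 (lipocalin 2, an iron-withholding protein of epithelia and neutrophils), at chr2:32384512-32384785 with a score of 29.9. Bspry followed with 28.5, 273 bases before the start and in no GENCODE gene, and Gm35761 with 28.5 and 26.1 on Guca2b (uroguanylin, an intestinal peptide). Gm12718 (22.3) lay in no gene. Over a start, AV064505 led with 16.0 (chr9:7695189-7695704) on its own first exon and, with more bases, on 2 exons of Mmp7 (matrilysin, an epithelial metalloproteinase) that run opposite to it. Another AV064505 peak 2090 bases upstream scored 13.9, and Mmp7's own start had a peak of 13.5. Plet1os on its own exon and the 3′UTR of Plet1 (9.48), Acot8 on Zswim3 (9.06), Ptprn (8.42) and Gm29940 on Rapgef4 (8.14) came next.

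The highest Mel-up promoter peak was assigned to Fam71e2 and lay wholly in the 3′UTR of Il11, a cytokine needed for decidualization (chr7:4772453-4772623, 27.3). It was followed by 5330439B14Rik on Abcc9 (19.8), a subunit of potassium channels in smooth muscle, by Dhx57 on Morn2 (13.2) and by Gm4129 in an intron (13.1). Over a start, Spire1 (an actin nucleator, 17.7), Stfa2l1 (a cystatin family inhibitor, 13.85), Slitrk3 (9.69), Tmco4 (7.95), Gm24149 (7.67) and Gm50592 (7.47) were the highest, 4 of the 6 with the most exon bases on the assigned gene. Among Mel-down peaks, the highest were Dysf (27.5), Gm27011 (21.3), Gm13201 on the 3′UTR of Agtrap (17.6) and LOC115486128 (13.9) upstream, 3 of the 4 in introns. Over a start, they were Gm52537 (12.7), Gm6354 (11.8), B230312C02Rik (11.7), Cdk8 (9.40), Ralgapa1 on Gm9812 (7.75) and Card6 (6.95), of which B230312C02Rik and Card6 had the most bases on their own GENCODE exons. The named exon held only part of some of these peaks, 15.4% of the highest Plekhs1 peak, 55.8% of that on Lcn2, 23.3% and 61.1% of those on Guca2b, 20.2% of that on Abcc9 and 14.8% of that on Morn2.

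**Figure D4:**
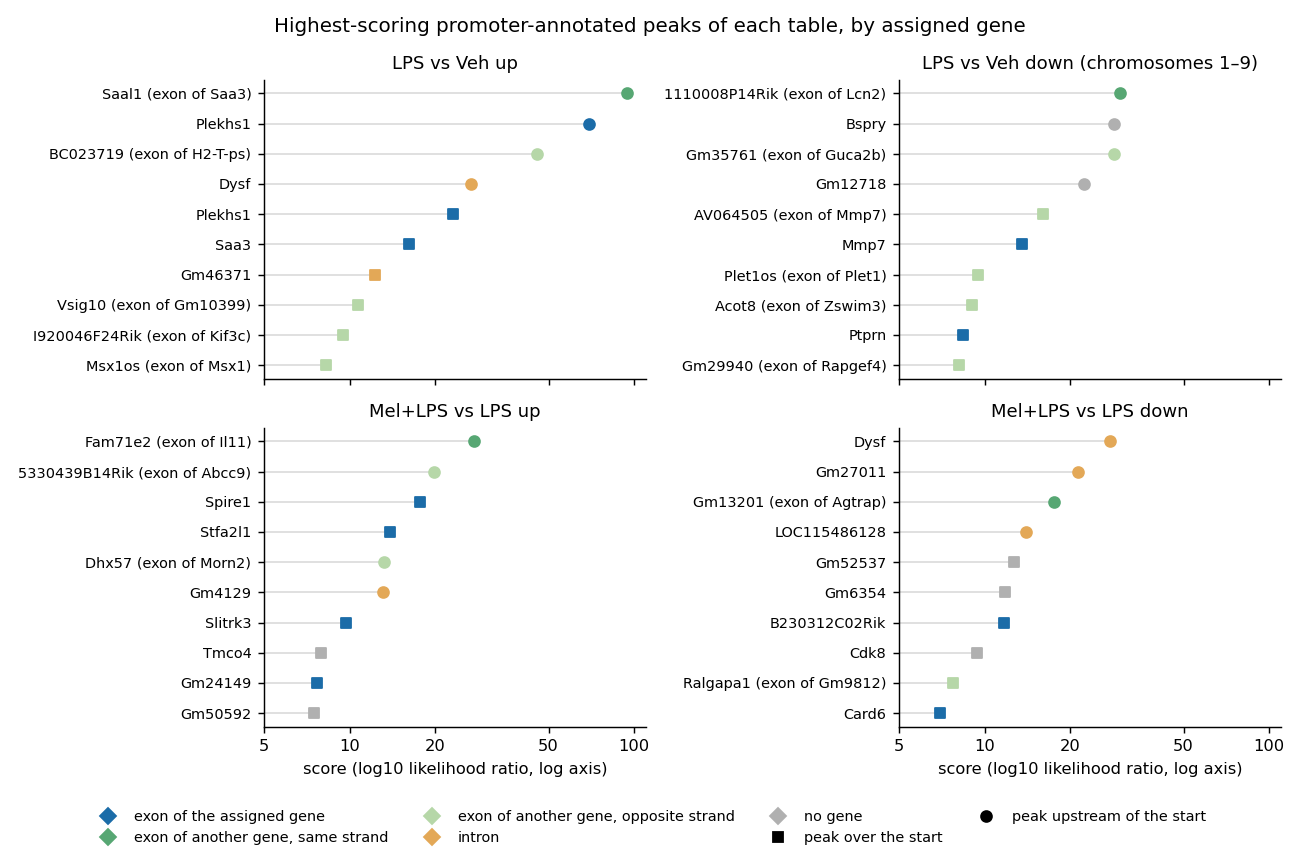
Scores (x axis, log10 likelihood ratio on a log axis) of the 6 highest promoter-annotated peaks over a start (squares) and the 4 highest upstream (circles) in each table, 1 per gene, with the assigned gene and, in brackets, another gene with more exon bases under the peak. Colors give the GENCODE placement. Of the 10 Mel-down peaks, 6 are in introns or no gene, and the highest score is that of the Saal1 peak on Saa3.

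Some sites appeared in both comparisons in opposite directions. Both comparisons use the same LPS libraries, so such pairs are given side by side and do not support each other. Among sites both LPS-up and Mel-down, Dysf had scores of 26.7 and 27.5 at nearly the same bases. Gm34252 on the 3′UTR of Slc13a5 (the citrate transporter) had 17.6 and 13.1, Gm2959 had 13.6 and 12.7, and Gm5575 had 11.1 and 11.8. Gm13201 on Agtrap (an angiotensin receptor-associated protein) had 10.7 and 17.6, and Sgms1 (sphingomyelin synthase 1) 9.07 and 9.56. Of these 6, 4 lay on no exon.

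Among sites both LPS-down and Mel-up, the Il11 3′UTR peak assigned to Fam71e2 had 21.9 and 27.3 and shared 147 bases between the tables. A second Il11 3′UTR peak was LPS-down with 12.35. Tada1 on Gm15853 had 9.49 and 10.4, Tcf12 (a basic helix-loop-helix factor) 8.89 and 8.72, and Rsl24d1 8.42 and 8.42. Igf1r (the IGF1 receptor) had 10.9 and 7.67, 1316 bases before its start and in no gene. The sixth pair was assigned to Mir3090 and lay wholly on the last exon of Bmp2, a ligand needed for decidualization, with 19.98 (chr2:133560991-133561805) and 6.23. A second LPS-down Bmp2 peak scored 11.9. Neither Il11 nor Bmp2 was the assigned name of these peaks.

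**Figure D5:**
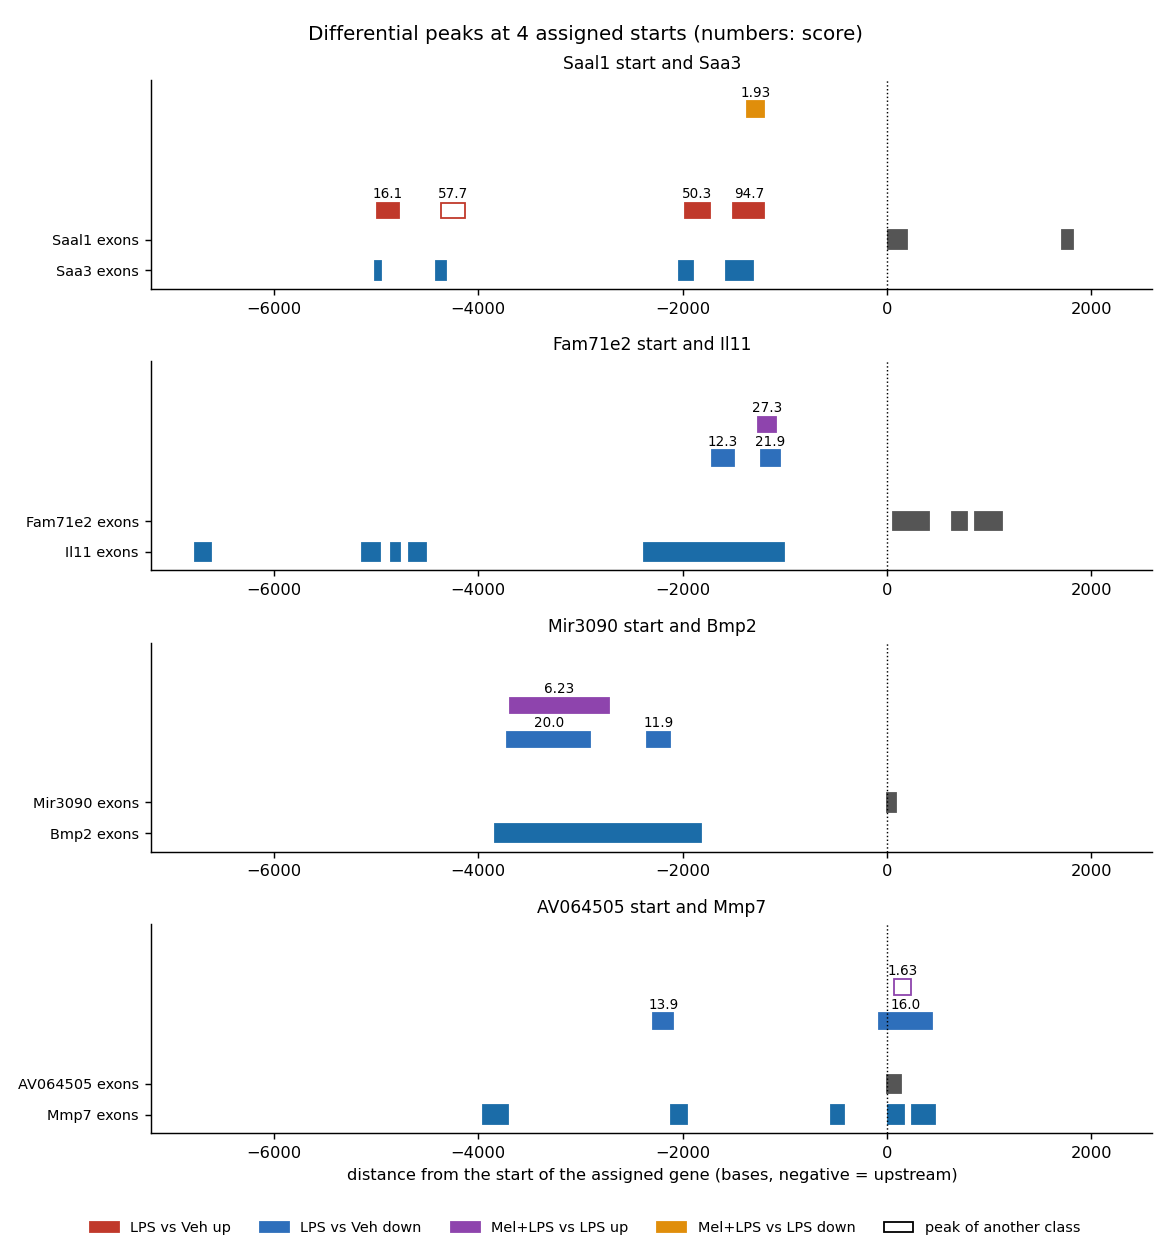
Differential peaks (colored boxes, 1 row per table, with the score above) around the starts of Saal1, Fam71e2, Mir3090 and AV064505, with exons of the assigned gene (gray) and of the neighbor (blue) below. The x axis is the distance from the assigned start in bases, negative upstream, and open boxes are peaks of other classes. The promoter-annotated peaks lie over exons of Saa3, Il11, Bmp2 and Mmp7, in part or whole.

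Among m6A writers, erasers and readers, few had a promoter peak. By assigned gene, it was 1 of the 9 members with any LPS-up peak (Rbm15), 1 of 7 with LPS-down (Rbm15b), 1 of 15 with Mel-up (Rbm15b) and 2 of 6 with Mel-down peaks (Rbm15 and Ythdc2). Over all genes with a peak, 9.34% to 10.4% had a promoter peak in a table. The list counts here and below go by the assigned name unless said otherwise. By the gene with the most exon bases under the peak (by exon), the share over all genes was 9.04% to 9.38%. The m6A list then had 2 of 12, 0 of 6, 0 of 17 and 2 of 8. The Rbm15 peaks, of an adaptor that brings the writer complex to RNA, lay partly on its own 5′UTR with scores of 2.08 (LPS-up) and 3.14 (Mel-down). The Rbm15b peaks lay on the 3′UTR of Manf, a stress-induced secreted factor, 1690 and 1686 bases before the Rbm15b start, with 4.78 (LPS-down) and 3.71 (Mel-up). The Ythdc2 peak (a reader helicase) lay over its start with 1.27. Exons of Zc3h13, a writer subunit, lay under 2 peaks assigned to Gm46470, LPS-up with 4.11 and 1.35.

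Among homeobox and developmental transcription factors with any peak, 6 of 25, 2 of 8, 2 of 12 and 7 of 25 had a promoter peak in the 4 tables. Counted by exon, it was 10 of 28, 0 of 4, 4 of 13 and 8 of 23. Hoxd9 had one over its start among LPS-up and Mel-down peaks, with 3.43 and 2.56, on its 5′UTR. An LPS-up (6.15) and a Mel-up peak (5.70) assigned to Mir196a-2 lay on exons of Hoxc10. Those of Gli2 (9.65, LPS-down) and Pbx3 (7.98, Mel-down) lay in no gene. On their own 5′UTRs, Meis2 (3.17) and Hoxc4 (2.03) had LPS-up peaks, Emx2 (2.74) a Mel-up peak and Tbx3 (2.76) a Mel-down peak. A Mel-up peak assigned to Tbx3os1 lay on the coding sequence of Tbx3 (2.91). A Mel-down peak assigned to Meis2 lay on 2700033N17Rik (2.10).

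Genes of uterine receptivity and decidua with a promoter peak numbered 3 of 20, 0 of 15, 1 of 32 and 2 of 20, and by exon 3 of 22, 1 of 14, 3 of 34 and 1 of 15. Pgr (the progesterone receptor) had a peak over its start on the 5′UTR (2.72) and Esr1 (an estrogen receptor) one in an intron (3.78), both LPS-up. The Esr1 score is the one most shared among LPS-up peaks. The Ptch1 peak (the hedgehog receptor, 3.77) was Mel-up, and those of Hoxa11 (1.39) and Nr2f2 (1.53) were Mel-down. By exon, the list also held Msx1, Bmp2, Fst (3.97, Mel-up, assigned to Gm41074) and Foxa2, the factor of uterine glands, whose 3′UTR lay under a peak assigned to 9030622O22Rik (7.51, LPS-up).

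For TLR and NF-kB signalling, the counts were 3 of 32, 1 of 12, 1 of 29 and 2 of 16, and by exon 1 of 32, 1 of 8, 1 of 33 and 1 of 18. Irak3, an inhibitory kinase of the pathway, had an LPS-up peak (5.75) and a Mel-down peak (1.43) in an intron. The peaks of Tlr3 (5.43, LPS-up) and Ly96 (the LPS co-receptor, 3.85, Mel-down) lay in no gene. The Ly96 score is the one most shared among Mel-down peaks. The 3′UTR of Nfkbie, an NF-kB inhibitor, lay under LPS-up (1.40) and Mel-down (2.18) peaks assigned to Slc35b2. Interferon-stimulated genes had 2 of 19, 0 of 7, 1 of 13 and 0 of 21 by name. Counted by exon, they had 5 of 20, 0 of 5, 1 of 13 and 3 of 25, the last being Dhx58, Eif2ak2 and Xaf1. Gbp7 (3.68) and Isg20 (1.27) had LPS-up peaks over their starts. Exons of Xaf1 lay under peaks assigned to Fbxo39, an LPS-up one of 16.1 with 11.8% of its bases on the exon and a Mel-down one of 1.53.

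Autophagy and apoptosis genes had 4 of 26, 2 of 8, 2 of 19 and 5 of 17 by name. By exon, they had 1 of 17, 2 of 6, 1 of 18 and 2 of 17. The LPS-down peak of Casp8, a caspase that starts apoptosis, lay in an intron (5.95). Mel-down peaks were those of Casp2 (7.78), on the 3′UTR of Tmem139, and the autophagy receptor Optn (6.39). Chromatin modifiers had 3 of 33, 3 of 13, 3 of 35 and 4 of 22, and by exon 6 of 46, 5 of 17, 6 of 49 and 1 of 25. Among them were Ash1l, a histone methyltransferase with LPS-down (7.67) and Mel-up (5.23) peaks on its own coding sequence, and the DNA methyltransferase Dnmt3a (8.21, Mel-up). Dnmt3a was also assigned a Mel-down promoter peak, so it went both ways in the same comparison. Splicing factors and RNA-binding proteins had 6 of 26, 1 of 13, 2 of 39 and 5 of 18, and by exon 4 of 26, 0 of 12, 5 of 40 and 4 of 15. Srrm2 went both ways, with Mel-down (5.52) and Mel-up (3.01) peaks, and was also among the LPS-up members. Immediate early and clock factors had 1 of 17, 0 of 7, 2 of 14 and 2 of 16, and by exon 2 of 18, 1 of 9, 3 of 18 and 2 of 17. The Egr3 peak (6.15, Mel-up) lay in no gene, 137 bases before its start. Ribosomal protein genes had 1 of 6, 0 of 9, 0 of 15 and 1 of 9 by name. By exon, they had 0 of 0, 4 of 12, 3 of 15 and 1 of 3. The member counted by name was Rpl13a, whose peaks lay on the 3′UTR of Flt3l.

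Of the cell type markers, epithelial genes had 1 of 2, 0 of 3, 0 of 1 and 1 of 8 with a promoter peak, and smooth muscle genes 0 of 3, 1 of 7, 1 of 10 and 0 of 3. The epithelial gene counted by name was Grhl2, whose peaks lay on exons of Gm16136. Counted by exon, epithelial genes had 1 of 2, 0 of 3, 0 of 2 and 1 of 8, and smooth muscle genes 0 of 4, 0 of 7, 2 of 11 and 0 of 0. Leukocyte genes had 0 of 8, 0 of 2, 0 of 5 and 0 of 7, and endothelial genes 0 of 4, 0 of 2, 0 of 3 and 0 of 4. Cnn1 (1.65, LPS-down) and Myh11 (1.31, Mel-up), both smooth muscle genes, had low scores. The differential tables hold no levels, so the tissue could not be checked against its markers. These lists are small, so their counts are given as a description.

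The sequence was read for promoter peaks that lie wholly on GENCODE exons or RefSeq promoter windows, since no genome was used. It could be read for 389, 204, 426 and 301 peaks, of which 7, 3, 7 and 13 lay on no exon. Of these, 348, 187, 400 and 265 had exons on 1 strand only. In them, DRACH occurred 24.0, 24.5, 23.4 and 24.8 times per kb on the strand of the gene whose exon held the peak. On the other strand of the same peaks, it occurred 14.6, 16.6, 17.3 and 16.8 times. Exon-class peaks had a like difference, with 24.2, 23.9, 24.1 and 24.8 on the strand of the exon and 14.6, 16.0, 15.8 and 15.0 on the other. Over all readable promoter peaks, the density on the strand of the assigned gene was 18.8, 20.97, 20.5 and 19.5. The RefSeq promoter windows had 17.6 on the gene's strand and 17.7 on the other. The readable peaks lay almost wholly on exons, so these values describe them and not promoter peaks at large.

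GGAC, the most common core of the consensus, was found on the strand of the exon in 67.2% of 348, 65.2% of 187, 65.8% of 400 and 57.7% of 265 such peaks that had exons on 1 strand only. On the other strand, it was found in 42.2%, 41.2%, 47.2% and 44.5% of them. In exon-class peaks, the shares were 59.75%, 55.89%, 64.13% and 54.29% on the strand of the exon and 41.32%, 41.97%, 44.32% and 38.19% on the other. Of the 300-base promoter windows, 65.7% held it on the gene's strand and 87.7% on either, but those windows are longer than most peaks. In 15 Mel-down peaks over the start, the order was turned, with 16.3 DRACH per kb on the strand of the exon and 19.8 on the other. GC content was 51.7%, 49.1%, 50.4% and 49.98%, beside 53.8% in promoter windows. CpG occurred 20.7 to 27.8 times per kb, beside 41.4 in promoter windows. In peaks over the start, it occurred 32.4 to 52.3 times.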

How the data were processed

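RNA of uteri from 3 treatments was sequenced before and after pulldown with an m6A antibody. Per the labels and the study's methods, read trimming used Fastp, alignment used STAR 2.5.2a, peak detection exomePeak2, differential peaks MACS2 3.4 and annotation ChIPseeker 1.22.1, on mm10. The deposited score of a peak is the authors' log10 likelihood ratio from MACS2, 1 per peak and comparison. How replicates were combined is not given in the sources used here, and depth per peak is unknown.

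Sequence names were matched to chromosomes through gene symbols in RefSeq. Peaks were placed on all GENCODE M21 exons, 1 base being enough, and given to the gene with the most exon bases under them (ties to protein-coding, then to the assigned gene), otherwise to intron or no gene. Genes were matched by symbol. Sequence was read only where a GENCODE transcript or a RefSeq promoter window covers it. The up share of LPS vs Veh used chromosomes 1 to 9. Named genes are, per table, the 6 highest over a start and the 4 highest upstream, 6 opposite pairs per direction, m6A regulators, genes measured by the study, and up to 4 members of each of 14 lists, of which a selection is given. Members and lists were chosen with earlier results of these data known. No test across samples was possible, so no p-values are given. Alternatives changed the score minimum, distance bin, side, exon rule, gene set, peak merging, strand and motif. Placement and sequence reading were tested on simulated data, where 200 of 200 made peaks came out as made. Python 3.11.15, numpy 2.4.6, pandas 2.3.3 and matplotlib 3.10.9 were used.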

Additional observations from a re-analysis of the deposited data

How the results depend on the processing

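No paired analysis was possible because the tables hold 1 score per peak and comparison and no value per replicate, and for the same reason no replicate could be left out. Of 99 values recomputed under another choice, 54 moved by less than their interval, 44 moved further and 1 reversed. The following moved, given for LPS-up, LPS-down, Mel-up and Mel-down peaks. With the bin up to 1 kb only, the promoter share was 4.03%, 3.80%, 3.25% and 4.23%, the upstream share 78.3%, 76.05%, 75.7% and 81.03%, and the GC content 52.7%, 49.8%, 52.6% and 50.7%, while the share of promoter genes among listed genes was 3.80% (Mel-up) and 9.19% (Mel-down). With the side taken from the peak center, the upstream share was 93.97%, 93.1%, 92.7% and 95.15%. The share of upstream peaks on an exon was 46.7%, 51.1%, 60.6% and 45.7% when at least 0.5 of the peak had to lie on exons, 46.4%, 50.6%, 60.05% and 45.5% by the peak center, and 47.5%, 51.5%, 71.1% and 40.9% with protein-coding genes only. GGAC occurred 4.397, 4.41, 4.93 and 4.42 times per kb, and DRACH on the strand of the exon, chosen after seeing the data, 24.04, 24.5, 23.4 and 24.8 times. At scores of 3 or more, the GC content was 49.7%, 49.96%, 50.02% and 48.1%, and the upstream share of Mel-up peaks 84.8%. At the same minimum, the up share of Mel+LPS vs LPS was 44.4% and so reversed across an even split. With 1 peak per gene, the promoter share of Mel-up peaks was 7.60%. Apart from the alternatives whose own construction narrows the peaks or changes the motif, the cause of these moves was not tested. Leaving out peaks at the most shared score, or those whose assigned symbol is not in GENCODE, was also chosen after seeing the data.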

Other observations

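Some genes outside the naming rule, chosen after their values were seen, had promoter peaks of interest. Csf3, the granulocyte colony-stimulating factor that drives neutrophil production, had an LPS-up peak of 26.7 and a Mel-down peak of 3.26 at the same bases (chr11:98701110-98701246), 67 bases before its start and in no GENCODE gene. Zbtb38, a zinc finger protein that binds methylated DNA, had an LPS-up peak of 12.4 and a Mel-down peak of 8.08 wholly on its own 5′UTR. Both comparisons share the LPS libraries. Igfbp2, an IGF-binding protein, had an LPS-down peak of 22.0, upstream of the assigned start, with 12.6% of it on its own coding sequence. Zfp37 had a Mel-up peak of 9.79, 36 bases before its start.

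C3, the central complement component, had 6 LPS-up promoter peaks with scores from 1.38 to 3.51, each partly on its own coding exons and 0 to 2749 bases before the assigned start. Fst (follistatin, an inhibitor of activin) had 4 Mel-up promoter peaks with scores from 1.81 to 3.97, all under the name of Gm41074, which runs opposite to it.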
